A study of Mus musculus with 13 samples.

Results

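The 8 genes described here encode the caseins and the main whey and secreted proteins of mouse milk: Csn1s1, Csn1s2a, Csn1s2b, Csn2, Csn3, Wap, Lalba and Glycam1. They were taken by symbol from a count table of 24421 genes, and the rule uses no measured value. RNA had been sequenced from 11 individual mammary tumors and 2 glands without cancer, all from female MMTV-HER2/Neu mice (line 202Mul/J on FVB/N). The labels give this strain for all groups, glands included, and also give the genotype of all as wild type. The strain carries the rat HER2/Neu cDNA driven by the MMTV long terminal repeat, which is active in breast epithelium, and its presence was not measured here. Primary untreated tumors (n = 3) came from mice without drug. Primary STV tumors (n = 3) came from mice given stavudine, a nucleoside inhibitor of reverse transcriptase, at 1 mg/mL in the drinking water. Recurrent 17-DMAG tumors (n = 3) came back once the HSP90 inhibitor 17-DMAG, at 20 mg/kg, had cleared the first tumor, and recurrent 17-DMAG + STV tumors (n = 2) did so in mice that also drank stavudine. In the study such mice drank it either from before tumors arose or only from the start of 17-DMAG. The sample titles do not say which schedule applied to these 2 tumors. The injections of 17-DMAG went on until the regrown tumors reached the end point size. Recurrence therefore cannot be told apart from continued exposure to the drug. The glands (n = 2) received no drug. Age at collection and the reproductive state of the glands were not given in the sources used here.

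Caseins are secreted by alveolar cells of the mammary gland and assemble into micelles that carry calcium and phosphate. Their genes are switched on in pregnancy and lactation by prolactin, whose receptor activates the kinase JAK2 and the transcription factor STAT5, together with glucocorticoids and the factor ELF5. Whey acidic protein (Wap) and alpha-lactalbumin (Lalba, the regulatory subunit of lactose synthase) are the soluble milk proteins among the 8, and Glycam1 is a mucin-like glycoprotein secreted into milk and also made by high endothelial venules of lymph nodes.

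On GRCm38 the 5 casein genes lie in a cluster on chromosome 5, within 266343 bases in RefSeq. Other annotated genes, Odam among them, lie between Csn1s2b and Csn3. GENCODE places Csn1s1 at chr5:87666208-87682578, Csn2 at chr5:87692624-87699630 on the minus strand, Csn1s2a at chr5:87774567-87788797, Csn1s2b at chr5:87808082-87824426 and Csn3 at chr5:87925579-87932665. Wap is at chr11:6635482-6638637, and Lalba and Glycam1 are at chr15:98480400-98482721 and chr15:103562759-103565081, all 3 on the minus strand. RefSeq promoter windows of GRCm38.p6, 250 bases before to 50 after the start, were at hand for 6 of the 8 genes, and not for Csn3 and Csn1s2b. The windows were searched for TTCNNNGAA, the palindromic motif that STAT5 can bind, which reads alike on both strands. It occurred in 4 of the 6 windows and in 8.30% of 32851 promoter windows of the same length. The 4 matches are printed with 10 bases on each side, in the direction of transcription and with the motif in capitals, because the genes differ in how much of their transcript tumors held.
Csn1s1: tttgtaacaaTTCTTAGAAtttatgtaaa
Csn2: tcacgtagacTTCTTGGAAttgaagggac
Csn1s2a: ttatagtgctTTCTTAGAAttacaatgac
Glycam1: gccaactcatTTCCCAGAAacaccaattc
Positions are counted from the start that each window was built on, which need not be the upstream end of the RefSeq gene. The first base of the motif was at -100 in Csn1s1, at -93 in Csn2 and at -145 in Glycam1, and at 20 after the start in Csn1s2a. RefSeq has Csn1s2a begin at chr5:87774450 and the upstream end of Csn2 at chr5:87699429, unlike the GENCODE positions above. Against those GENCODE positions the Csn1s2a match lies before the gene and the Csn2 match inside it. No such letters stood in the Wap and Lalba windows. The Lalba window, chr15:98482634-98482933, lies inside the RefSeq gene, whose upstream end is at chr15:98482934. The bases before that end were not searched.

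Library totals ran from 39921388 to 56887708 counts. Levels are given as CPM (counts per library size in the usual CPM unit, where the library size is its total multiplied by a TMM factor that corrects for the make-up of the RNA). The TMM factor was 0.493 in gland 2 and 0.999 to 1.12 in the other libraries. A floor of 3 counts equalled 0.0587 to 0.0695 CPM, and 0.107 CPM in gland 2. The glands differed from each other: the 8 genes took 3.16% of all counts in gland 1 (95% Wilson interval 3.15 to 3.16) and 37.7% in gland 2 (37.66 to 37.68), against 0.490% to 2.47% in the tumors. Intervals and floors cover counting error only. Each gland is therefore given on its own, and fewer secretory cells cannot be told apart from less transcript per cell in these bulk samples. Summed skeletal muscle markers (10 genes) stood at 1834 CPM in gland 2, 1657 CPM in recurrent 17-DMAG + STV replicate 2, 1044 CPM in primary untreated replicate 1 and 467 CPM in recurrent 17-DMAG replicate 3, and at most 162 CPM elsewhere.

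Tumors held Csn3 and Lalba at median levels near those of gland 1, held Csn1s1, Csn1s2a and Csn2 at variable and mostly lower levels, and had little Wap and Glycam1. The tumor median of Csn3 was 104% of gland 1 and 12.1% of gland 2, and that of Lalba 153% and 9.77%. For Csn1s2b the medians were 74% and 0.0155%. They fell through Csn1s1 (10.2% and 0.494%), Csn1s2a (2.71% and 0.105%) and Csn2 (2.09% and 0.0686%) to Wap (0.662% and 0.00176%) and Glycam1 (0.0235% and 0.000547%). Of the 11 tumors, 9 were above gland 1 for Lalba, 7 for Csn3, 5 for Csn1s2b and 2 for Csn1s1, and 0 for the other 4 genes. No tumor reached gland 2 for any of the 8 genes.

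**Figure D1:**
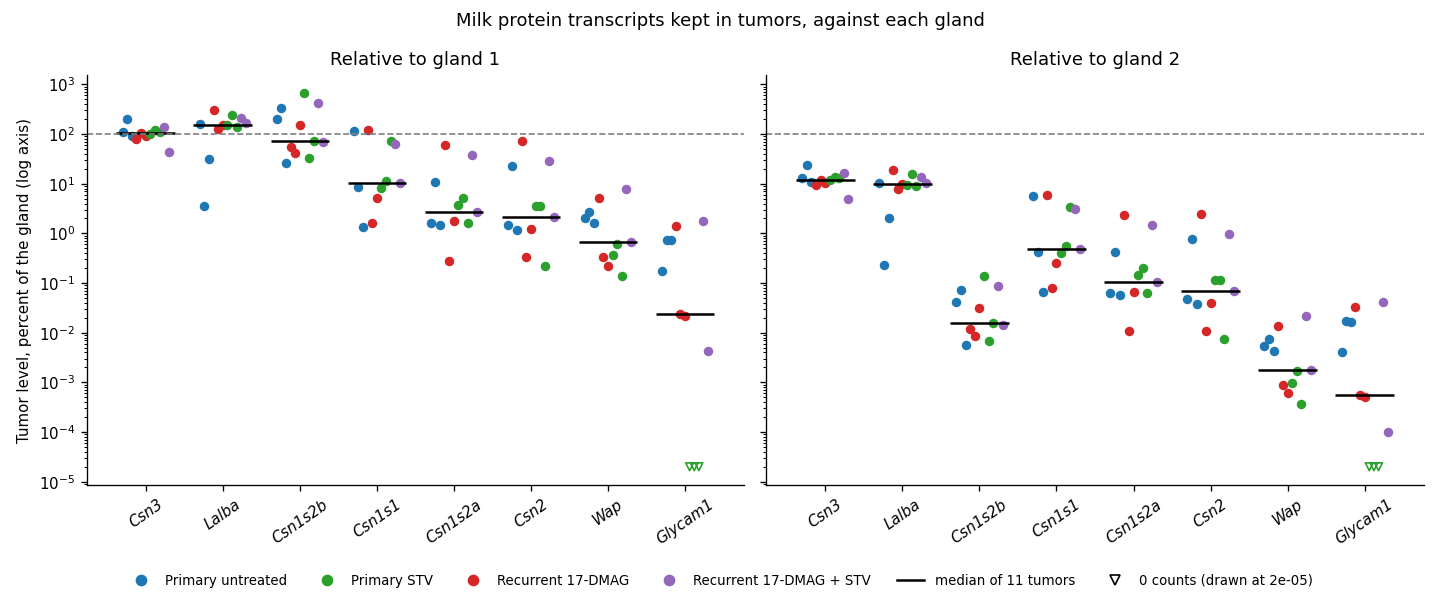
Level of each milk protein gene in each of the 11 tumors (points, colored by group), as a percent of gland 1 (left) and of gland 2 (right), on a log axis; black lines mark tumor medians, the dashed line 100%, and open triangles 0 counts. Csn3 and Lalba lie around gland 1, and Glycam1 has the lowest median, 0.0235% of gland 1.

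Csn3 encodes kappa-casein, which caps and stabilizes the micelle. Its level was 7579, 13988 and 6274 CPM in the primary untreated tumors (replicates 1 to 3) and 6919, 8075 and 7541 CPM in the primary STV tumors. It was 5506, 7094 and 6145 CPM in the recurrent 17-DMAG tumors, 9481 and 2946 CPM in the recurrent 17-DMAG + STV tumors, and 6830 and 58582 CPM in glands 1 and 2. The tumor groups overlapped, and gland 1 lay inside the tumor range. The largest tumor value was 4.75 times the smallest, and the SD over the 11 tumors on the log2 scale was 0.55, larger than that of 66.0% of the 16870 genes tested in the tumors. Per kilobase of exon Csn3 ranked between 3 and 12 among all genes with a length in every tumor, 9 in gland 1 and 7 in gland 2.

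Csn1s1 encodes alpha-S1-casein, which takes part in casein transport and micelle structure. Primary untreated tumors held 6829, 515 and 80.8 CPM, and primary STV tumors 491, 690 and 4251 CPM. Recurrent 17-DMAG tumors held 7279, 95.6 and 308 CPM, recurrent 17-DMAG + STV tumors 3852 and 607 CPM, and the glands 5956 and 122735 CPM. Primary untreated replicate 1 and recurrent 17-DMAG replicate 1 were thus above gland 1, while other tumors of the same groups were far below it. Within the primary untreated group the highest value was 84.5 times the lowest, and within the recurrent 17-DMAG group 76.2 times.

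Csn2 encodes beta-casein, the most abundant casein of many milks. The values were 110, 1744 and 86.7 CPM in primary untreated tumors, 264, 264 and 17.0 CPM in primary STV tumors, 5570, 25.2 and 90.5 CPM in recurrent 17-DMAG tumors and 2184 and 158 CPM in recurrent 17-DMAG + STV tumors. Gland 1 had 7533 CPM and gland 2 had 229592 CPM. Csn2 had the widest range of the 7 genes counted in every tumor, 328-fold, and the groups overlapped. Csn1s2a, one of the alpha-S2-caseins, was at 99.6, 651 and 88.9 CPM in primary untreated tumors and at 222, 317 and 96.4 CPM in primary STV tumors. It was at 3653, 17.1 and 105 CPM in recurrent 17-DMAG tumors, at 2268 and 163 CPM in recurrent 17-DMAG + STV tumors, and at 6028 and 155309 CPM in the glands. Both genes were highest in replicate 1 of each recurrent group, below gland 1 in all tumors.

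Csn1s2b, the other alpha-S2-casein gene, set the 2 glands furthest apart. It stood at 6.59 CPM in gland 1 and 31485 CPM in gland 2, a ratio of 4780. In the tumors it was at 13.3, 22.4 and 1.76 CPM (primary untreated), 43.4, 2.13 and 4.87 CPM (primary STV), 3.66, 2.72 and 9.84 CPM (recurrent 17-DMAG) and 27.4 and 4.59 CPM (recurrent 17-DMAG + STV). Gland 1 thus sat among the tumors for this gene and not above them. The same ratio between glands was 376 for Wap, 43.0 for Glycam1, 30.5 for Csn2, 25.8 for Csn1s2a, 20.6 for Csn1s1, 15.6 for Lalba and 8.58 for Csn3, and its median over 15221 genes with at least 10 counts in both glands was 0.931.

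**Figure D2:**
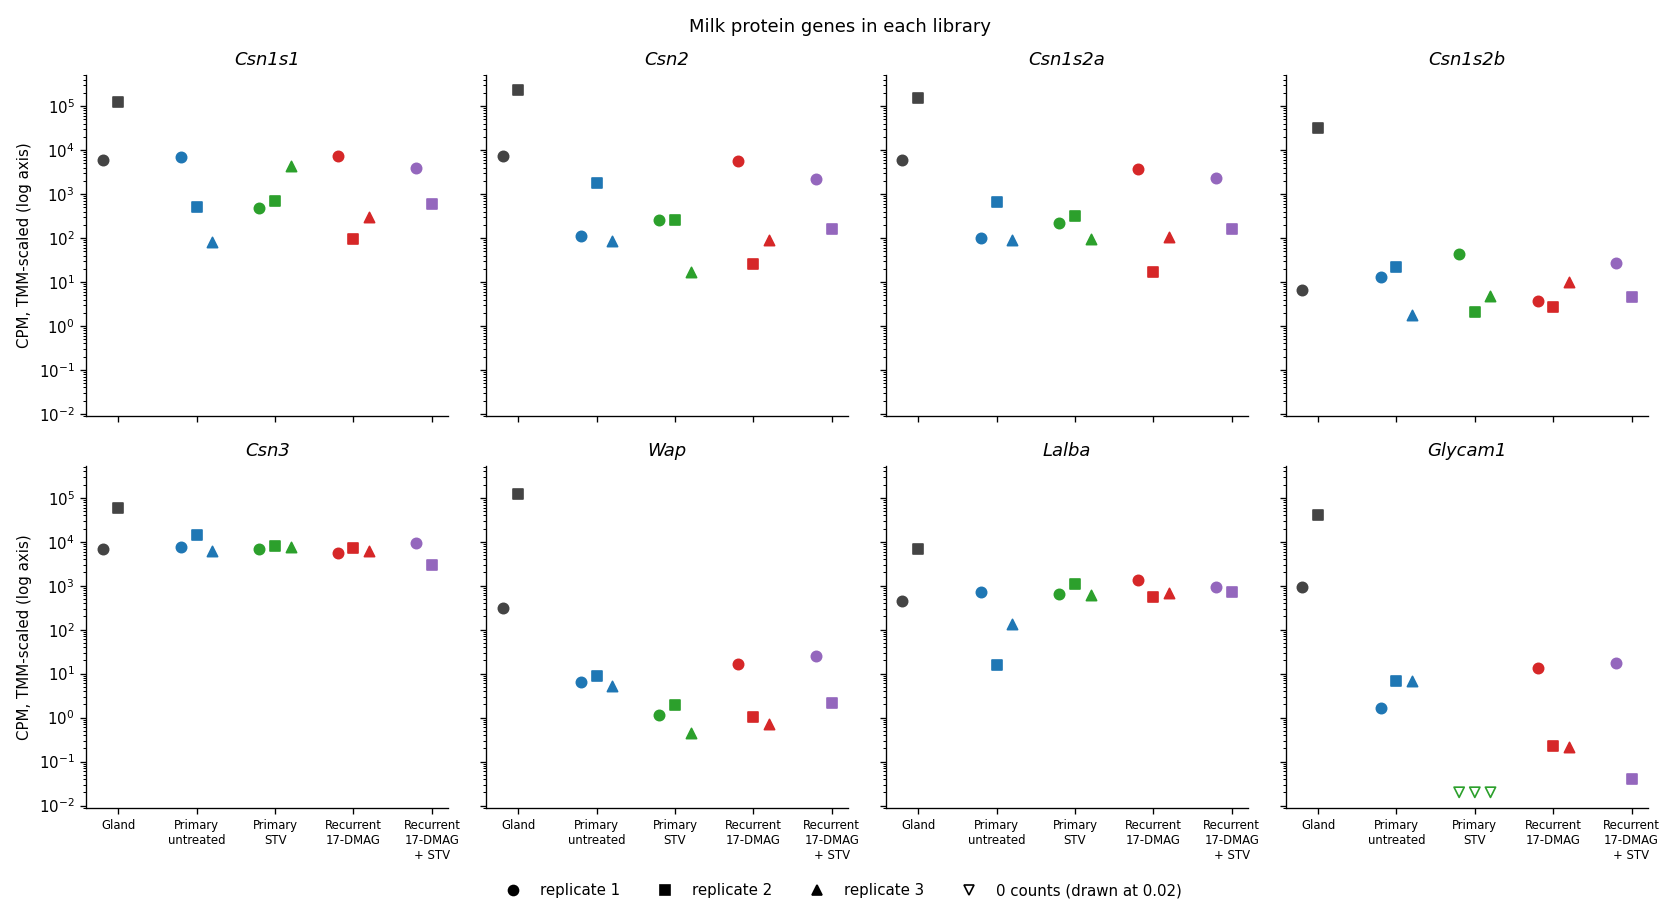
Level of the 8 milk protein genes in each library, in TMM-scaled CPM on a log axis, by group; symbols give the replicate and open triangles mark 0 counts. Csn3 spans 2946 to 13988 CPM over the tumors, while Csn1s1, Csn2 and Csn1s2a spread widely inside single groups and Glycam1 had 0 counts in the 3 primary STV tumors.

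Wap, a small cysteine-rich whey protein and a marker of late alveolar differentiation, was low in every tumor. It measured 6.35, 8.72 and 5.23 CPM in primary untreated tumors and 1.17, 1.98 and 0.443 CPM in primary STV tumors. In recurrent 17-DMAG tumors it measured 16.4, 1.05 and 0.714 CPM, in recurrent 17-DMAG + STV tumors 25.4 and 2.10 CPM, and in the glands 317 and 119394 CPM. The highest tumor value was 8.0% of gland 1. Per kilobase of exon Wap ranked first among all genes in gland 2, at rank 29 in gland 1, and between 939 and 12422 in tumors.

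Lalba, which turns a galactosyltransferase into lactose synthase, was low in only a pair of tumors. It was at 702, 15.9 and 138 CPM in primary untreated tumors and at 661, 1068 and 612 CPM in primary STV tumors. It was at 1327, 549 and 674 CPM in recurrent 17-DMAG tumors, at 922 and 723 CPM in recurrent 17-DMAG + STV tumors, and at 441 and 6895 CPM in the glands. Primary untreated replicates 2 and 3 were the low tumors and the 2 below gland 1. Against Csn3 in the same library, Lalba counts were 0.00113 to 0.245 per Csn3 count in tumors, 0.0646 in gland 1 and 0.118 in gland 2. Wap counts per 10000 Csn3 counts were 0.587 to 29.8 in tumors, 465 in gland 1 and 20381 in gland 2.

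Glycam1 was the least retained. It had 84, 337 and 342 counts in the primary untreated tumors (1.67, 6.87 and 6.86 CPM) and 0 counts in all 3 primary STV tumors. The recurrent 17-DMAG tumors had 590, 10 and 10 counts (13.7, 0.223 and 0.210 CPM) and the recurrent 17-DMAG + STV tumors 875 and 2 counts (17.1 and 0.0408 CPM, the latter under the floor). The glands had 950 and 40807 CPM. Every tumor was below both glands, and the highest was at 1.80% of gland 1. Taking 3 counts over the whole primary STV group as the limit that a count of 0 allows (0.0219 CPM), gland 1 was at least 43307-fold higher. Markers of lymph node and high endothelial venules (15 genes) summed to 321 CPM in gland 1, 12.6 CPM in gland 2 and 4.17 to 7.94 CPM in tumors. Of these, Chst4, which modifies ligands on high endothelial venules, was at 1.66 CPM in gland 1 and at 0 in gland 2 and all tumors, and Ccl21a was at 0 in every library. The part of lymph node tissue in the Glycam1 level of gland 1 was not tested, and gland 2 had the higher Glycam1 level with the lower marker sum.

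The make-up of the milk protein counts shifted with these differences. Csn3 supplied 24.3% of the counts of the 8 genes in gland 1, 7.66% in gland 2 and 23.6% to 93.9% in tumors. Its share was lowest in recurrent 17-DMAG replicate 1, the tumor in which the 8 genes took the most counts (2.47% of the library, 95% Wilson interval 2.469 to 2.479). That tumor stood at 122% of gland 1 for Csn1s1, 73.9% for Csn2 and 60.6% for Csn1s2a, but at 5.17% for Wap and 1.44% for Glycam1. In recurrent 17-DMAG + STV replicate 1 the same 5 genes were at 64.7%, 29.0%, 37.6%, 8.0% and 1.80% of gland 1.

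**Figure D3:**
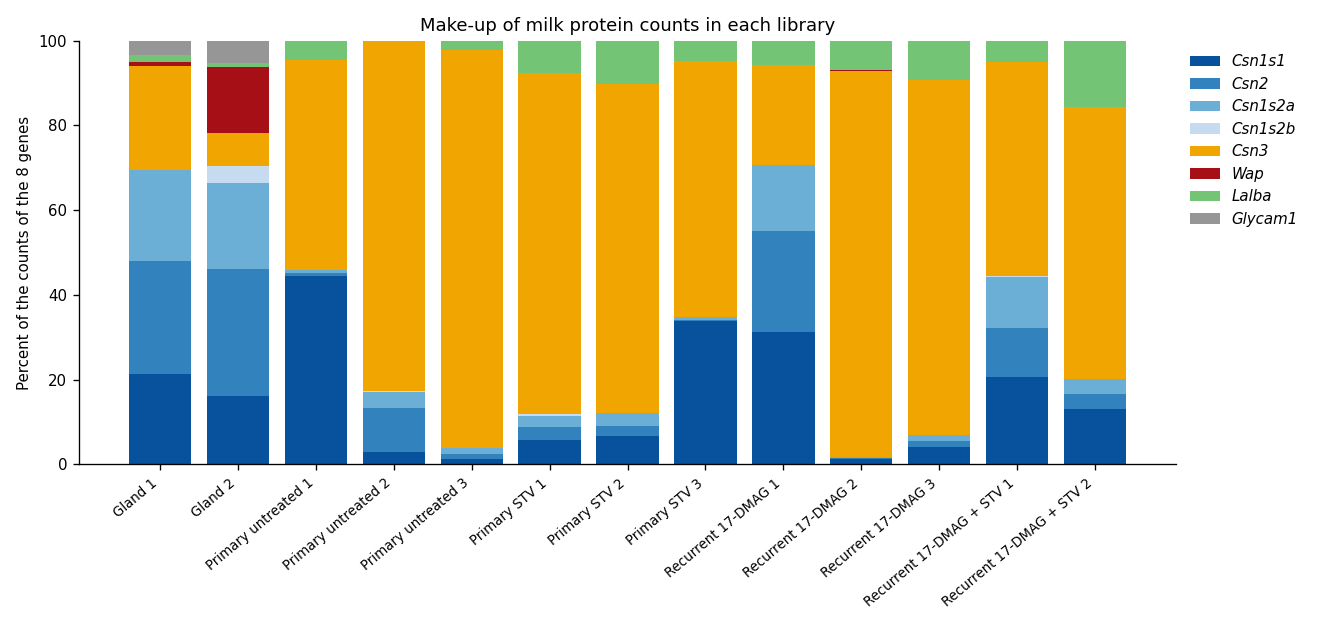
Share of each of the 8 genes in their summed counts (percent, not per length), 1 stacked bar per library. Csn3 makes up 23.6% to 93.9% of the bar in tumors, and Wap and Glycam1 are visible in the glands and not in the tumors.

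The comparison of tumors with glands asked which milk transcripts tumors carry less of than cancer-free tissue. In the edgeR quasi-likelihood fit of all 13 libraries, the mean of the 4 tumor groups was lower than the glands for 6 of the 8 genes at an adjusted p under 0.05, against 8.81% of the 17135 genes tested that were lower in tumors. The 6 were Glycam1 (log2 difference -14.56 ± 1.92 SE, adjusted p = 0.00408), Wap (-13.52 ± 1.6, adjusted p = 0.00151), Csn1s2b (-10.41 ± 1.65, adjusted p = 0.00499), Csn2 (-7.37 ± 1.62, adjusted p = 0.0191), Csn1s2a (-7.20 ± 1.40, adjusted p = 0.012) and Csn3 (-2.18 ± 0.53, adjusted p = 0.0292). Csn1s1 (-4.84 ± 1.40, adjusted p = 0.0522) and Lalba (-2.55 ± 0.88, adjusted p = 0.0878) did not pass. The median over the 8 genes was -7.29, and over all genes -0.02. The fitted Glycam1 value depends on the count added to 0 in the primary STV group. At its bound from the floor, Glycam1 was at least 14307-fold lower. The median over the 8 is set by Csn2 and Csn1s2a and could not change with this choice.

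These calls rest on 2 glands that differ widely. Fitted without gland 2, so that gland 1 stood alone and was assumed to vary like the other groups, only Wap (-5.87 ± 1.00, adjusted p = 0.0131) and Glycam1 (-10.03 ± 1.81, adjusted p = 0.0302) were called lower, Csn1s2a was at -3.37, Csn2 at -3.31 and Csn1s1 at -1.32, and the differences of Csn3 (0.16 ± 0.54), Lalba (0.59 ± 1.28) and Csn1s2b (0.90 ± 1.67) turned positive without passing. Fitted without gland 1, all 8 were called lower, from -2.98 ± 0.42 for Csn3 (adjusted p = 0.00132) to -15.49 ± 1.89 for Glycam1 (adjusted p = 0.00162). In all genes, 275 were higher and 1510 lower in tumors, and 8 and 481 when library totals alone set the scale.

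For the 3 primary untreated tumors alone, 1 of the 8 genes was called lower than the glands, against 1.83% of 17135 genes. It was Wap (-13.11 ± 2.57, adjusted p = 0.041). The other 7 had the same sign, from -1.82 ± 0.72 for Csn3 (adjusted p = 0.162) to -11.99 ± 3.05 for Glycam1 (adjusted p = 0.0717), and 7 of the 8 had an unadjusted p under 0.05, as did 24.5% of all genes. In this comparison 48 genes were higher and 313 lower, and 0 and 19 with library totals alone. Leaving out 1 tumor of any group but recurrent 17-DMAG replicate 1, or gland 2, ended the Wap call, 6 of the 8 were called without gland 1, and 3 without recurrent 17-DMAG replicate 1.

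**Figure D4:**
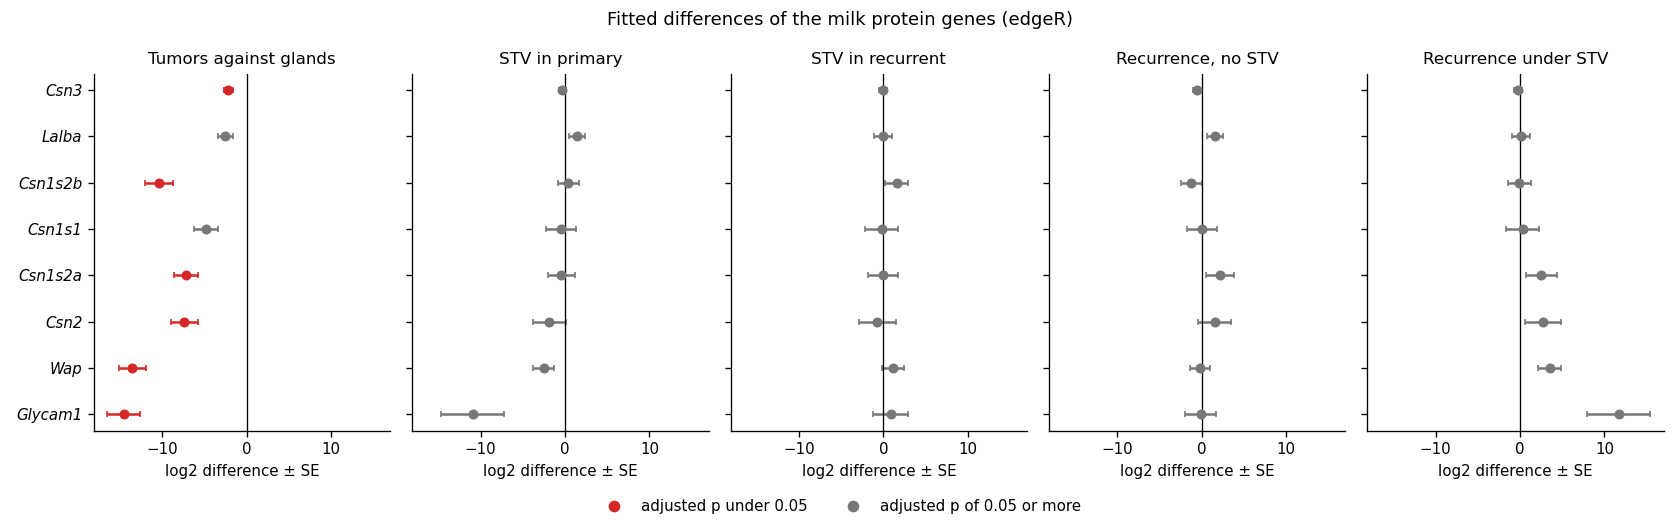
Fitted log2 difference (edgeR, point) and its standard error (bar) of each gene in 5 comparisons; red marks an adjusted p under 0.05. Of the 8 genes, 6 are red for tumors against glands and 0 in the 4 comparisons among tumors, and the Glycam1 points of both comparisons with primary STV tumors depend on the count added to 0.

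Among tumors, the design asks whether stavudine and recurrence, with 17-DMAG continued, changed expression. No member was called in any of the 5 comparisons among tumors, and no gene of the 16870 tested was (0.0% in each). DESeq2 called 18 to 327 genes in the same comparisons. At an unadjusted p under 0.05 there were 634, 1635, 1696, 1323 and 1322 genes for stavudine in primary tumors, recurrence without stavudine, recurrence under stavudine, stavudine in recurrent tumors and the interaction. Log2 differences of the 4 caseins other than Csn3 had standard errors of 1.20 to 2.15 in the comparisons of 2 groups, so that large differences in either direction fall within the error. For Csn3 the standard errors were 0.41 to 0.47 and the differences -0.32 (stavudine in primary tumors), -0.59 (recurrence without stavudine), -0.27 (recurrence under stavudine) and 0.00 (stavudine in recurrent tumors). Lalba differed by 1.44 ± 0.97 with stavudine in primary tumors and by 1.57 ± 0.97 with recurrence without stavudine, and by 0.08 ± 1.06 and -0.04 ± 1.06 in the comparisons that do not involve the untreated group. The first of these values ran from 0.90 without primary untreated replicate 2 to 3.33 without replicate 1, and the second from 1.01 to 3.46 without the same tumors. The comparisons of primary STV and of recurrent 17-DMAG tumors with primary untreated tumors share the untreated tumors.

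Wap and Glycam1 had CPM ranges that did not overlap between primary untreated and primary STV tumors, being lower in all 3 STV tumors. That held for 2 of the 8 genes and for 10.8% of all genes tested. With the floor over the group, Glycam1 was at least 234-fold lower in primary STV tumors (unadjusted p = 0.0197, edgeR adjusted p = 1), and the Wap difference was -2.51 ± 1.26 (adjusted p = 1). Against the same 3 primary STV tumors (0.443 to 1.98 CPM for Wap), recurrent 17-DMAG + STV replicate 1 was high for Wap (25.4 CPM) and Glycam1 (17.1 CPM), while replicate 2 was at 2.10 CPM for Wap and under the floor for Glycam1. The Wap ranges did not overlap, by a margin of 2.10 against 1.98 CPM, as was the case for 35.3% of all genes in this comparison, and for Glycam1 replicate 2 could not be told from 0. The Wap difference for recurrence under stavudine was 3.52 ± 1.37 (unadjusted p = 0.0293, edgeR adjusted p = 0.461), and 0.80 without replicate 1 and 4.4 without replicate 2. Glycam1 had an unadjusted p of 0.0161 (adjusted p = 0.425), and 0.413 (adjusted p = 0.75) without replicate 1. No member was apart for recurrence without stavudine, where 15.1% of genes were, or for stavudine in recurrent tumors, where 21.5% were. The interaction of recurrence and stavudine gave 3.69 ± 1.79 for Wap (adjusted p = 0.655), from 0.95 without recurrent 17-DMAG + STV replicate 1 to 6.45 without recurrent 17-DMAG replicate 1. Glycam1 had an unadjusted p of 0.0281 (adjusted p = 0.6), and 0.418 without recurrent 17-DMAG + STV replicate 1. DESeq2 without its outlier filter, added after seeing the data, called Glycam1 in stavudine in primary tumors (adjusted p = 0.0198) and in recurrence under stavudine (adjusted p = 0.00432), and its adjusted p for the interaction was 0.0649.

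Some of the 8 genes varied together from tumor to tumor. Over the 11 tumors and 28 pairs, tested on log2 CPM by permutation and adjusted over the pairs, Csn1s2a and Csn2 had a Pearson r of 0.937 (adjusted p = 0.00056) and a Spearman rho of 0.955 (adjusted p = 0.00168), and r was 0.857 without the 2 tumors farthest from the median. Wap and Glycam1 had r = 0.885 (permutation, adjusted p = 0.0109) and rho = 0.829 (adjusted p = 0.0323), and r = 0.799 without 2 tumors. Csn2 and Wap had r = 0.823 (permutation, adjusted p = 0.0185) and rho = 0.764 (adjusted p = 0.0843), and r = 0.657 without 2 tumors. These 3 pairs passed by Pearson's r and 2 by both measures. With 2 or 3 tumors per group no value within a group can be given, and in each pair the highest tumors were replicate 1 of the 2 recurrent groups. None of the pairs of Csn3 with another casein passed: r was 0.409 with Csn1s2b (permutation, adjusted p = 0.587), 0.242 with Csn2 (adjusted p = 0.702), 0.201 with Csn1s2a (adjusted p = 0.702) and 0.085 with Csn1s1 (adjusted p = 0.849).

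**Figure D5:**
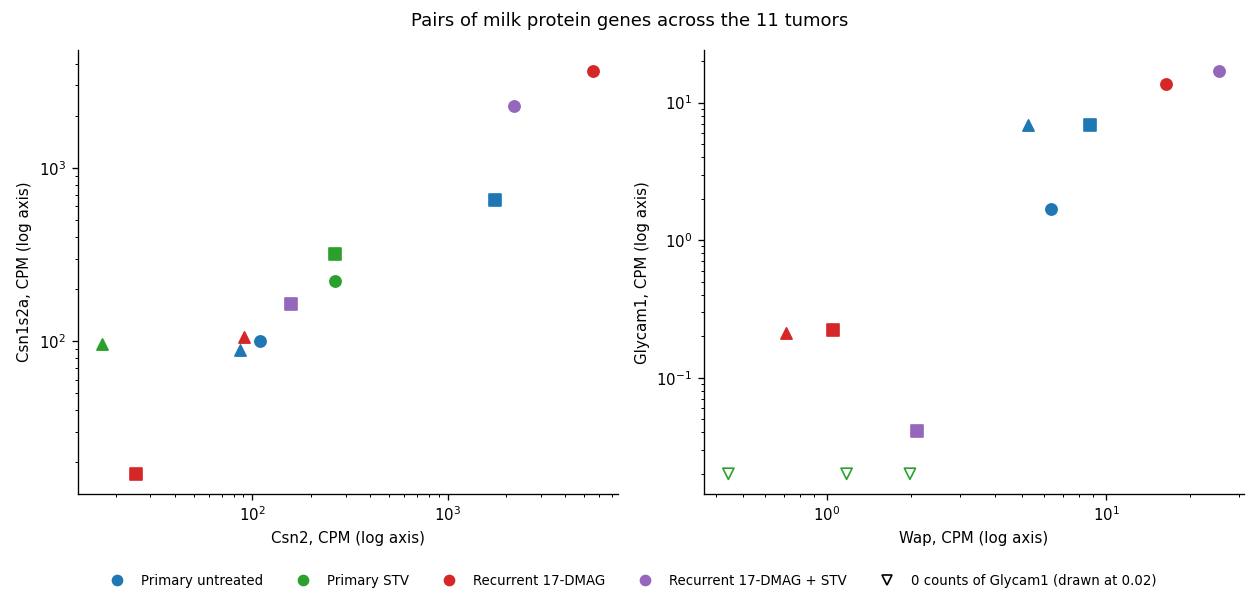
Csn1s2a against Csn2 (left) and Glycam1 against Wap (right) in the 11 tumors, CPM on log axes, colored by group; open triangles mark 0 counts of Glycam1. Csn1s2a follows Csn2 (r = 0.937), and replicate 1 of both recurrent groups is highest on both plots.

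Among 12751 genes whose tumor mean reached a log2 CPM of 1, the gene most like each member over the 11 tumors, by Pearson's r and with no test, was Elf5 for Csn1s2a (0.952), Ltf for Csn2 (0.958), Cish for Csn3 (0.944), Eps15 for Lalba (0.985), Nampt for Csn1s2b (0.916), Atp8b1 for Wap (0.878), Snord15b for Glycam1 (0.930) and Has1 for Csn1s1 (0.818). Single tumors can set such values. Csn3 and Cish were both highest in primary untreated replicate 2 (13988 and 78.1 CPM) and both lowest in recurrent 17-DMAG + STV replicate 2 (2946 and 17.7 CPM). Lalba was lowest by far in primary untreated replicate 2 (15.9 CPM). Elf5 encodes an alveolar transcription factor, Ltf lactoferrin, and Cish an inhibitor of cytokine signalling. Elf5 was at 305 and 299 CPM in replicate 1 of the recurrent 17-DMAG and recurrent 17-DMAG + STV groups and at 144 to 227 CPM in the other tumors. Ltf was at 713 and 576 CPM in that pair of tumors and at 1.35 to 133 CPM in the others. Summed myoepithelial markers were at 327 CPM in recurrent 17-DMAG replicate 1, 132 CPM in recurrent 17-DMAG + STV replicate 1, 387 CPM in recurrent 17-DMAG + STV replicate 2 and 55.0 to 152 CPM in the other 8 tumors. How often a tumor was the highest of the 11 was not computed over all genes. Recurrent 17-DMAG replicate 1 was highest for 6 of 17 genes of prolactin and STAT5 signalling, 5 of 15 lymph node genes and 3 of 10 lactose synthesis genes. For adipocyte and skeletal muscle genes it was highest for 0 of 10 each. Recurrent 17-DMAG replicate 1 was the highest of the 11 tumors for 7 of the 10 myoepithelial, 6 of the 10 luminal and 7 of the 10 proliferation genes. Recurrent 17-DMAG + STV replicate 1 was so for 0, 1 and 0. Krt5, Krt14 and Krt19, named after their values were seen, were at 6.18, 2.92 and 41.0 CPM in the former, and at most at 2.33, 1.66 and 7.00 CPM in the other tumors. Other genes of these lists went the other way. Trp63, Acta2 and Mylk were at 23.4, 90.8 and 52.8 CPM in recurrent 17-DMAG replicate 1. They were at 86.4, 148 and 91.7 CPM in recurrent 17-DMAG + STV replicate 2. Cldn3, at 109 CPM in recurrent 17-DMAG replicate 1, was the lowest of the 11 there. Adipocyte markers summed to 92.0 and 61.2 CPM in the pair and to 8.46 to 305 CPM in the others. The part of residual gland in these values was not tested.

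Genes annotated within 100000 bases of the casein genes were at low levels. Of 13 such neighbors 9 were in the table, and their highest tumor level was 29.9 CPM, for Odam, which encodes a protein of the enamel organ. Odam was at 0.849 and 3.43 CPM in the glands and at 0.324 CPM or more in every tumor.

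Other proteins of milk and of the milk fat globule, 20 genes, were lower in tumors than in glands for 13 and higher for 0. Of all genes 8.81% were lower and 1.6% higher. The median log2 difference of the list was -3.25. The largest were Fabp3, which carries fatty acids (-10.20 ± 0.82, edgeR adjusted p = 0.000647), Lpo, lactoperoxidase (-9.90 ± 1.49, adjusted p = 0.00405), Cel, a lipase that digests milk fat (-9.85 ± 0.78, adjusted p = 0.000647), and Atp2b2, a calcium pump (-9.76 ± 1.10, adjusted p = 0.00117). Fabp3 was at 119 and 4660 CPM in the glands and at 0.692 to 4.22 CPM in tumors. Cel was at 145 and 3838 CPM in the glands and at 0.740 to 4.75 CPM in tumors. These 2 genes were thus far below gland 1 in every tumor, as Wap and Glycam1 were. The list was mixed against gland 1 alone. Of the 11 tumors, 10 were above gland 1 for Trf and Lcn2, and 7 for Mfge8, Wfdc18 and Parm1. It was 0 for Cel, Fabp3, Muc1, Muc15, Saa3 and Atp2b2, and 1 to 3 for the rest. Lpo and Atp2b2 were far lower in gland 1 than in gland 2, and their differences without gland 2 are not given here. Lpo was at 2.73 and 227 CPM in the glands and at 0 to 3.27 CPM in tumors (median 0.042), 1 of which was above gland 1. Atp2b2 was at 4.06 and 1662 CPM in the glands and at 0.245 to 1.96 CPM in tumors (median 0.973), all below gland 1.

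The prolactin and STAT5 list held 17 genes. In tumors 3 of them were higher and 2 lower, where 1.6% of all genes were higher and 8.81% lower, and the median was -0.21. Lower were Elf5 (-1.80 ± 0.36, edgeR adjusted p = 0.0134), at 313 and 1081 CPM in the glands and a tumor median of 172 CPM, and Nr3c1, the glucocorticoid receptor (-0.83 ± 0.21, adjusted p = 0.0327). Socs2, which dampens cytokine and growth hormone signalling (1.6 ± 0.42, adjusted p = 0.0397), and Gata3, a luminal transcription factor (0.94 ± 0.24, adjusted p = 0.0322), were among the higher. The receptor Prlr, named after its values were seen, was at 127 to 251 CPM in tumors and at 166 and 279 CPM in the glands (-0.30 ± 0.21, adjusted p = 0.354). Stat5a, named in the same way, was at 62.0 to 292 CPM in tumors and at 151 and 407 CPM in the glands (-0.89 ± 0.48, adjusted p = 0.24).

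Of the 10 genes of lactose synthesis, Lalba included, 1 was lower and 1 higher in tumors, near the 8.81% of all genes for the lower. B4galt1, the galactosyltransferase that Lalba joins, was lower (-2.87 ± 0.46, edgeR adjusted p = 0.00518), at 381 and 4028 CPM in the glands and 211 to 392 CPM in tumors. Hk1, a hexokinase, was higher (1.36 ± 0.34, adjusted p = 0.0304). B4galt1 therefore lay well under gland 2 and closer to gland 1, as Lalba and Csn3 did. It was mostly below gland 1, with 1 of the 11 tumors above it, against 9 for Lalba and 7 for Csn3.

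Lists of cell types moved with the same comparison. Of 10 luminal keratin and junction genes 1 was lower, near the 8.81% of all genes, and 0 higher, with a median of 0.56. Lower in tumors were 7 of 10 myoepithelial genes, 8 of 10 adipocyte genes and 11 of the 12 lymph node genes tested, and 0 of 10 proliferation and 0 of 10 skeletal muscle genes were called. The summed lymph node markers were high in gland 1 only, at 321 CPM, against 12.6 CPM in gland 2 and 4.17 to 7.94 CPM in tumors. Adipocyte markers summed to 1708 and 1356 CPM in the glands and to at most 305 CPM in tumors. Their part in the differences of the milk genes was not tested. In the 5 comparisons among tumors no gene of these lists was called.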

How the data were processed

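Total RNA depleted of ribosomal RNA had been sequenced with a stranded protocol in 13 libraries. The deposited values are raw read counts per gene, made by the authors with bcl2fastq 2.20, STAR and featureCounts (Subread 1.6.2) on mm10 (GRCm38) with the UCSC annotation. The STAR version, the strand setting and the handling of multimapping reads were not given in the sources used here. All 13 columns were used.

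Counts were analysed in R 4.3.3 with edgeR 4.0.16: filterByExpr, TMM factors, a robust quasi-likelihood fit on group means, two-sided tests and Benjamini-Hochberg adjustment over all genes tested, called at an adjusted p under 0.05. Contrasts with glands used all 13 libraries (17135 genes), those among tumors the 11 tumors (16870 genes). All 8 milk genes passed the filter in both fits. The SE is the log2 difference divided by the square root of F. Exon lengths and positions came from GENCODE on GRCm38. Correlations used log2 CPM with a prior count of 2 and 100000 permutations.

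The 8 genes and the lists were chosen with earlier results of these data known. By rule, at most the 4 called genes with the largest difference were named from each list, and for each milk gene the gene with the highest r. Other list genes were named outside this rule, among them Trp63, Acta2, Mylk, Cldn3, Chst4 and Ccl21a, and those marked as named after their values were seen. The fits were tested on simulated data. Replicate numbers name different mice. Alternatives were other scalings, no filter, a replicate block, DESeq2 1.42.0, only the groups compared, and leaving out each library. DESeq2 without its Cook's distance filter was added after the data were seen. Each list is not independent evidence of its direction.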

Additional observations from a re-analysis of the deposited data

How the results depend on the processing

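Of 1073 recomputed log2 differences of single genes, 953 kept their direction and their side of the threshold, 29 lost the call, 21 gained one and 70 changed sign. Uncalled differences to which DESeq2 gave no p-value were counted among the 953 where their direction held, although their side of the threshold was not tested. Against all 4 tumor groups, 6 genes were called lower than the glands, and leaving out 1 library gave 2 (without gland 2) to 8. The replicate block gave 1 call, Wap, and DESeq2 also gave 1, Csn3, since its outlier filter left the other 7 without a p-value. Against primary untreated tumors the 1 call became 0 with library totals alone, with the replicate block and with only the groups compared. The number also changed when 1 library was left out. DESeq2 gave 0 calls here, but in the same fit its outlier filter had left Wap without a p-value. That 0 is therefore a missing test of Wap and not a lost call. DESeq2 without the Cook's distance filter, chosen after seeing the data, gave 6 calls. That filter setting gave 1 call, Glycam1, for stavudine in primary tumors and 1, Glycam1, for recurrence under stavudine. With library totals alone the median of all genes in the gland comparisons moved to 0.36 and 0.37, and all 8 genes stayed lower. Without the ribosomal precursor Rn45s the 8 genes took 3.36% of counts in gland 1, 39.7% in gland 2 and 0.524% to 2.69% in tumors. The cause of these changes was not tested.

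Same-numbered tumors did not deviate together (15 pairs, r from -0.295 to 0.222), so the replicate block has no basis in the design. With the block the following log2 differences changed sign, each uncalled with and without it: Csn1s1 to 1.48 and Csn1s2b to -0.47 for stavudine in primary tumors, Csn1s1 to -0.46 and Csn2 to -0.072 for recurrence without stavudine, Csn1s1 to -1.14 and Lalba to -0.23 for recurrence under stavudine, Csn1s1 to 0.80 for stavudine in recurrent tumors and Csn1s1 to -0.68 for the interaction.

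Leaving out 1 library moved these log2 differences across 0, from the lowest to the highest value. Primary untreated tumors against glands had Csn1s2b (-11.26 to 1.02) and Csn3 (-2.62 to 0.54). All 4 groups against glands had Csn1s2b (-11.36 to 0.90), Csn3 (-2.98 to 0.16) and Lalba (-3.42 to 0.59), each positive only without gland 2. Stavudine in primary tumors had Csn1s1 (-2.07 to 2.58), Csn1s2a (-0.84 to 1.18), Csn1s2b (-1.83 to 1.17), Csn2 (-2.37 to 0.90) and Csn3 (-0.54 to 0.13). Recurrence without stavudine had Csn1s1 (-3.62 to 3.09), Csn1s2a (-2.18 to 3.74), Csn2 (-3.46 to 4.27), Wap (-2.93 to 0.36) and Glycam1 (-4.54 to 0.46). Recurrence under stavudine had Csn1s1 (-1.58 to 1.91), Csn1s2a (-0.38 to 3.42), Csn1s2b (-1.89 to 2.19), Csn2 (-0.21 to 3.58), Csn3 (-1.36 to 0.33) and Lalba (-0.11 to 0.36). Stavudine in recurrent tumors had all 8: Csn1s1 (-2.09 to 3.46), Csn1s2a (-2.96 to 4.31), Csn1s2b (-0.25 to 2.33), Csn2 (-3.60 to 4.33), Csn3 (-1.09 to 0.60), Wap (-1.54 to 3.96), Lalba (-0.29 to 0.43) and Glycam1 (-6.77 to 5.29). The interaction had Csn1s1 (-2.78 to 3.92), Csn1s2a (-2.57 to 4.70), Csn1s2b (-0.70 to 3.39), Csn2 (-1.79 to 6.15) and Csn3 (-0.80 to 0.89).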
